A study of Saccharomyces cerevisiae with 51 samples.

Results

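Divergent intergenic intervals are the stretches of DNA between neighbouring genes that point away from each other, the left gene on the minus strand and the right gene on the plus strand. They were taken from the gene annotation of the budding yeast nuclear chromosomes in the version named before, of 2 deposited versions (before and after), and coordinates are 1-based in that version. Every annotated biotype was used, and a gene ran from its lowest to its highest recorded base. Of 7055 steps from one gene to the next, 6304 left a gap of 1 bp or more. The gap was divergent in 1594 of these (25.3%), tandem, with both genes on the same strand, in 3040 (48.2%), and convergent, with the 3′ ends of both genes facing each other, in 1670 (26.5%).

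The series holds 51 chromatin immunoprecipitation libraries from the BY4741 laboratory strain of budding yeast, of input DNA, histone H3 and H3 phosphorylated at serine 10 (H3pS10), a mitotic histone mark. Cells labelled ipl1-TetR-mCh, sgo1-TetR-mCh, sgo1 delta, H3-S10A and wild type were taken with 1 nM beta-estradiol for 3 hours and without it, and cells labelled ipl1-321, cdc15-1 and wild type at 37 °C for 90 minutes. Each of these 13 combinations has 1 library of each kind, apart from wild type with and without beta-estradiol, which have 3. The files used here hold chromosome lengths, bin positions and gene positions and no value for any library, so no H3 or H3pS10 level at these intervals is given and the depth is unknown. All lengths below are exact counts of bases in 1 annotation, so they have neither replicates nor sampling error and were not tested. The spread given is that between the 16 nuclear chromosomes.

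A yeast promoter lies just upstream of the coding sequence, usually in a nucleosome-depleted region where transcription factors bind and the preinitiation complex forms. Between divergent protein-coding genes a single interval carries the promoters of both. Regulators bound there, such as Gal4 between GAL1 and GAL10, can act on both genes, and the nucleosome-depleted region may be shared or separate. A tandem gap between protein-coding genes, by contrast, holds 1 promoter and the end of the upstream gene, and a convergent gap holds only gene ends. Gaps of all biotypes were kept here, and a tRNA gene flanked 142 of the 1594 divergent ones.

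The interval as measured here runs from start codon to start codon where both genes code for protein. For all 6664 nuclear protein-coding genes, the extent was the same from coding records as from all records. The interval therefore includes the 5′ untranslated part of both transcripts as well as the promoters.

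Divergent gaps were longer than tandem gaps, with a median of 477 bp against 378 bp, a ratio of 1.26. Neighbours with no base between them, 321 with divergent and 188 with tandem strands, have no gap length. These values leave them out and describe only gaps of 1 bp or more. The interquartile range was 275 to 761.75 bp for divergent gaps and 258 to 576 bp for tandem gaps. In 57.5% of all possible pairings of a divergent with a tandem gap, the divergent gap was the longer one, so the distributions overlapped broadly. Tandem gaps with both genes on the plus strand had a median of 387 bp, and those with both on the minus strand 367.5 bp. The difference of 99 bp between divergent and tandem medians was thus larger than that between the tandem strands. Convergent gaps were the shortest class, with a median of 226 bp, and a divergent gap exceeded a convergent one in 75.8% of pairings.

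Divided by the number of start sites it serves, a divergent gap was shorter than a tandem one. The divergent median came to 238.5 bp per start site. The mean length was 639 bp for divergent gaps, 507 bp for tandem gaps and 325 bp for convergent gaps. The average of the divergent and convergent means was 482 bp, close to the tandem mean. In all, divergent gaps covered 1017808 bp, which is 8.43% of the nuclear genome and 32.8% of all gap bases.

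The difference between divergent and tandem gaps was not uniform along the length scale. The 3 ranges compared here differ in width and were chosen after the lengths were seen. Lengths of 200 to 349 bp were about as common in both classes, with 441 divergent gaps (27.7%) and 959 tandem gaps (31.5%). Between 350 and 449 bp there were 145 divergent gaps (9.1%) and 512 tandem gaps (16.8%). From 450 to 699 bp the shares were 23.8% of divergent gaps (380) and 21.2% of tandem gaps (644). Per 50 bp of length, these ranges held 147.0, 72.5 and 76.0 divergent gaps, so the number dropped after the first range and stayed nearly level. Tandem gaps numbered 320.0, 256.0 and 129.0 per 50 bp in the same ranges. Lengths of 1000 bp or more were found in 14.9% of divergent gaps and 9.28% of tandem gaps.

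Counted in classes of 50 bp, divergent gaps had a peak followed by a drop, whereas the tandem count fell in each class from 300 to 649 bp. The divergent count was highest at 250 to 299 bp, with 174 gaps. It was 112 at 300 to 349 bp and 70 at 350 to 399 bp. It then stayed between 60 and 98 in every class up to 749 bp, with the highest of these at 450 to 499 bp. Tandem gaps numbered 350 at 250 to 299 bp, 290 at 350 to 399 bp, 211 at 450 to 499 bp and 81 at 600 to 649 bp, where divergent gaps numbered 84. At 650 to 699 bp there were 64 divergent and 84 tandem gaps.

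**Figure D1:**
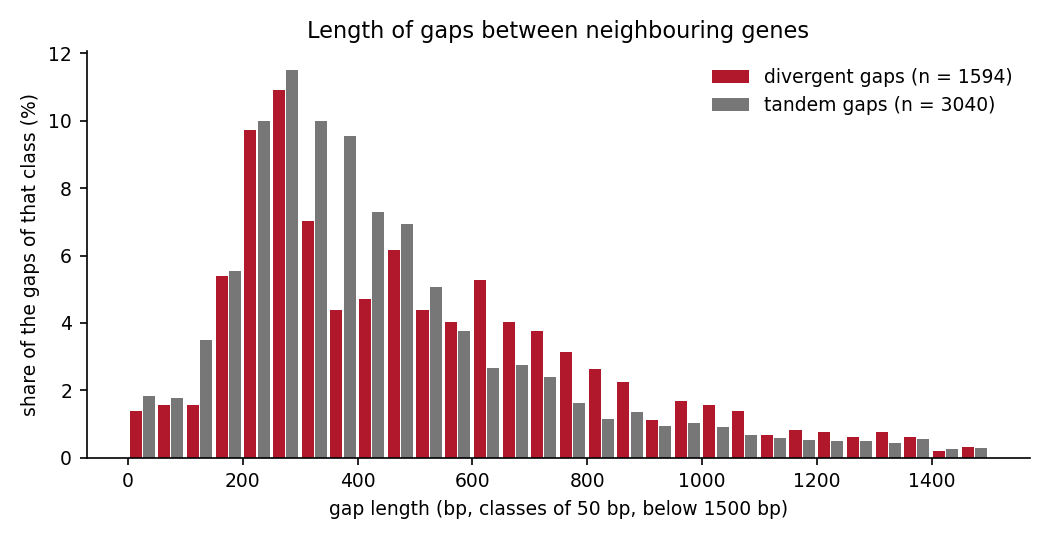
Share of divergent gaps (red, left bar) and tandem gaps (grey, right bar) in length classes of 50 bp, up to 1499 bp in length; each bar is a percentage of all gaps of that orientation. Both peak at 250 to 299 bp (10.9% and 11.5%), the divergent share is 4.39% against 9.54% for tandem at 350 to 399 bp, and divergent bars stand above tandem bars in every class from 550 to 1399 bp.

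Divergent gaps were spread over the chromosomes in proportion to length. The count was 30 on chromosome I, the shortest, and 196 on chromosome IV, the longest. Per 100 kb there were 13.2 ± 0.569 divergent gaps (mean and SD over 16 chromosomes). The density was lowest on chromosome III (12) and highest on chromosome VI (14.4). Chromosome III also had the lowest share of divergent gaps among its gaps, 21.6%, and chromosome I the highest, 28.3%. A divergent gap was met every 6.93 kb on chromosome VI and every 8.33 kb on chromosome III.

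Along a row of genes the changes of strand from minus to plus and from plus to minus alternate, so the numbers of divergent and convergent gaps can differ by more than 1 only where neighbours leave no gap. Chromosome IV had 23 fewer divergent than convergent gaps, the largest difference. On 11 chromosomes divergent gaps were the fewer, on chromosomes XII and XIV the numbers were equal (145 and 103 of each), and on chromosomes VI, XI and XIII divergent gaps were the more numerous. Of the neighbouring steps that left no gap, 321 had the strands of a divergent pair, 188 of a tandem pair and 242 of a convergent pair. They stand beside 1594 divergent, 3040 tandem and 1670 convergent gaps. A missing gap was thus most frequent, for the size of the class, between neighbours with divergent strands and least frequent between tandem ones. The steps without a gap include genes that lie wholly inside their neighbour, 57 with divergent, 50 with tandem and 57 with convergent strands.

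**Figure D2:**
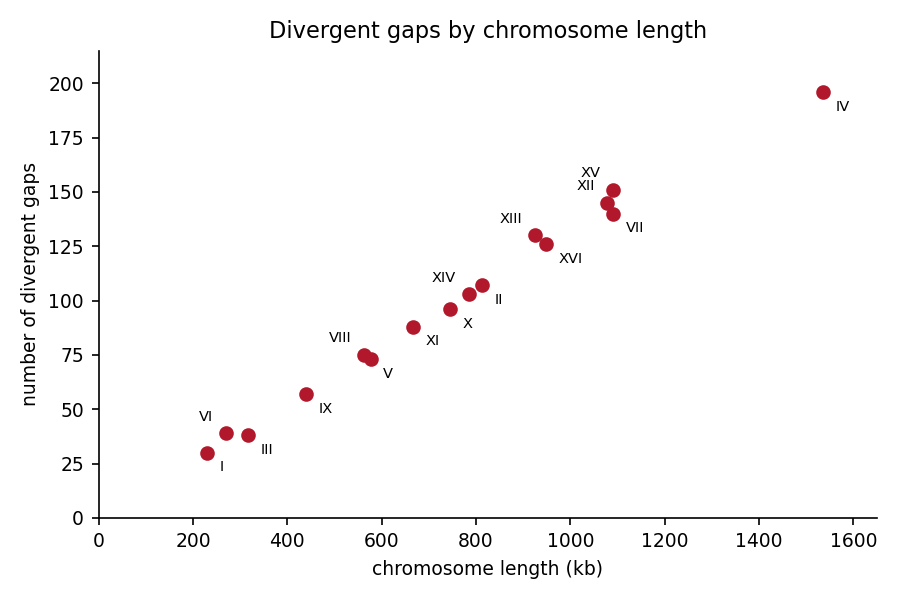
Number of divergent gaps (vertical axis) against chromosome length in kb (horizontal axis), 1 point for each of 16 nuclear chromosomes. The points lie near 1 line, from 30 gaps on chromosome I to 196 on chromosome IV.

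The longer divergent median held on each chromosome. The divergent median exceeded the tandem median on 16 of 16 chromosomes, by 34 bp on chromosome VI (401 bp against 367 bp) and by 288 bp on chromosome I (613 bp against 325 bp). Over the 16 chromosomes the divergent median averaged 484 ± 60.1 bp and the tandem median 371 ± 30.8 bp (mean ± SD). Chromosomes I and V (608 bp) had the highest divergent medians and chromosome VI the lowest. On chromosome VI the divergent gap was the longer one in 50.4% of pairings with a tandem gap, so there the classes were nearly level by that measure.

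**Figure D3:**
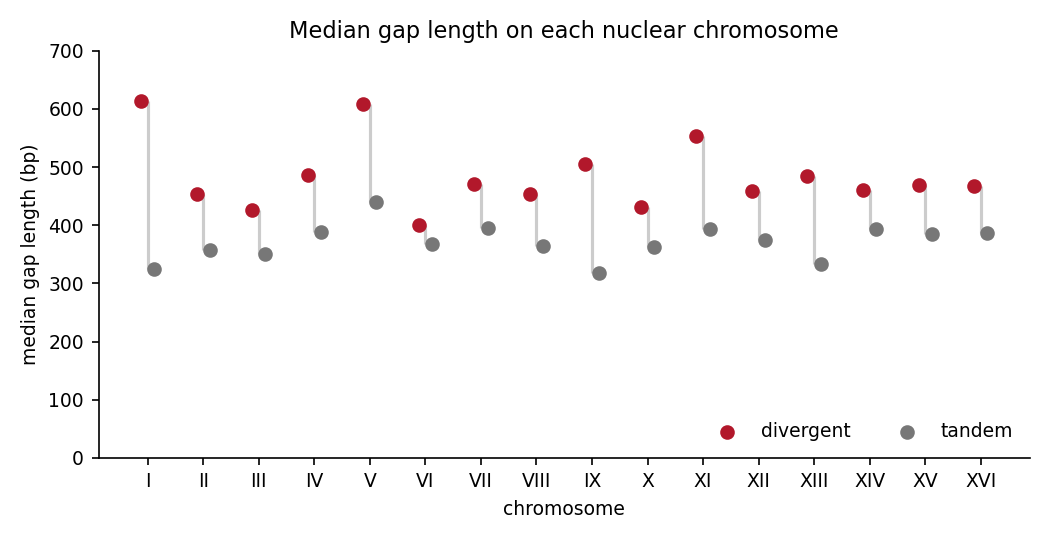
Median gap length in bp (vertical axis) of divergent gaps (red) and tandem gaps (grey) on each nuclear chromosome, joined by a line. The red point is the higher one on all 16 chromosomes, with the widest separation on chromosome I and the narrowest on chromosome VI.

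Near the chromosome ends the orientation made little difference to length. Within 20 kb of an end lay 67 divergent gaps with a median of 797 bp and 111 tandem gaps with a median of 808 bp. Farther in, the medians were 473 bp for 1527 divergent gaps and 373 bp for 2929 tandem gaps. Of the 16 divergent gaps over 3000 bp, 5 were within 20 kb of an end, as were 7 of 17 tandem and 3 of 8 convergent gaps of that length.

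The shortest divergent gaps left almost no room between start codons. The shortest of all was 9 bp, between YPL205C and HRR25, a casein kinase gene, at chrXVI:164267-164275. Next came 10 bp between YLR149C-A and STM1, which encodes a ribosome-associated protein, on chromosome XII, and 11 bp between YDR366C and KEI1 on chromosome IV. Just below the limit of 1 bp, SLS1 and YLR140W on chromosome XII abutted with no base between them, and YDL162C and ENT1, an endocytosis gene, on chromosome IV overlapped by 2 bp. Of the gaps kept, 47 divergent (2.95%) were under 100 bp, against 110 tandem (3.62%) and 214 convergent (12.8%). Neighbours with no base between them do not enter these shares. They numbered 321 with divergent, 188 with tandem and 242 with convergent strands, so the shares do not rank the classes by close spacing.

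Many of these very short gaps border an open reading frame that the RefSeq gene table of assembly R64 does not list. Among 42 divergent gaps under 100 bp between protein-coding genes, 25 (59.5%) had both genes in that table. Over all 1410 divergent gaps between protein-coding genes the number was 1266 (89.8%). For tandem gaps under 100 bp it was 49 of 95 (51.6%), and over all 2691 tandem coding pairs 2416 (89.8%). In the 142 divergent coding pairs with 1 gene outside the table, the median gap was 285 bp, against 476 bp where both genes were in it.

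Between protein-coding genes that both carry a name, 924 divergent gaps had a median of 476 bp and 1763 tandem gaps a median of 381 bp. The shortest of the named divergent gaps was 27 bp, between SOM1, a subunit of the mitochondrial inner membrane peptidase, and HHY1 (chrV:42625-42651). ALP1, a basic amino acid permease gene, and BSC4 were 37 bp apart (chrXIV:137662-137698). ISW1, the ATPase of a chromatin remodelling complex, lay 51 bp from RRT2 (chrII:711540-711590). RPS30B, a ribosomal protein gene, was 78 bp from FYV12 (chrXV:678794-678871). NIF3 and the iron regulation gene FRA2 were 81 bp apart on chromosome VII, and DGR1 and NRK1, the nicotinamide riboside kinase gene, 88 bp apart on chromosome XIV. These 6 pairs were the only named ones under 100 bp.

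The remaining 4 pairs of the 10 shortest ranged from 120 to 158 bp. RSE1, a splicing factor gene, and GSF2, which acts in the export of hexose transporters from the endoplasmic reticulum, had 120 bp between them on chromosome XIII. A gap of 151 bp separated NSG1, a regulator of sterol synthesis, from WSS1, a protease that repairs DNA-protein crosslinks, on chromosome VIII. The same length lay between ACF2 and RMP1, an RNase MRP subunit gene, on chromosome XII. MXR2, a methionine sulfoxide reductase gene, and STE50, an adaptor of the pheromone and osmotic stress kinase cascades, were 158 bp apart on chromosome III. All 10 pairs had both genes in the R64 table. The shortest tandem gap between named genes was 12 bp, between FYV1 and RPS11A on chromosome IV. That pair had only 1 gene in the R64 table, as had the next, AAD16 with AAD6 on chromosome VI (29 bp). The shortest named tandem gap with both genes listed was 31 bp, between ATP10 and CST9 on chromosome XII. For divergent gaps it was the 27 bp of SOM1 with HHY1.

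At the other end, the 10 longest named divergent gaps ranged from 2728 to 3894 bp. SRY1, an amino acid dehydratase gene, and JEN1, the lactate transporter gene, were 3894 bp apart (chrXI:18340-22233). FLO9, a flocculin gene, and GDH3, a glutamate dehydrogenase gene, were 3598 bp apart (chrI:27969-31566). PST2 and MRH1 had 3451 bp between them (chrIV:507801-511251), and AAP1, an aminopeptidase gene, and YHK8 3296 bp on chromosome VIII. NRG1, a repressor of glucose-repressed genes, and HEM13, a heme synthesis gene, were separated by 3272 bp (chrIV:546475-549746).

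The next 5 ranged from 3258 to 2728 bp. They were FRE2, a ferric reductase gene, with COS9 (3258 bp), HPF1, a cell wall mannoprotein gene, with ZPS1 (3051 bp), the hexose transporter gene HXT15 with the thiamine synthesis gene THI13 (2843 bp), BSC5 with the ABC transporter gene PDR18 (2782 bp), and the mannoprotein gene TIR2 with AUS1, a sterol uptake transporter gene (2728 bp). FRE2 with COS9 and HXT15 with THI13 lay within 20 kb of a chromosome end, and SRY1 with JEN1 and BSC5 with PDR18 were just outside, at 20.3 kb. Between named genes the longest tandem gap exceeded the longest divergent one, among 1763 tandem and 924 divergent gaps. GTT1, a glutathione transferase gene, and YPS6 were 5984 bp apart on chromosome IX, and ADH4 and the zinc transporter gene ZRT1 4670 bp on chromosome VII. The next, SIR1 with FLO10 on chromosome XI (3851 bp), was below the longest divergent one. Over all genes the order was the other way, with maxima of 7822 bp for divergent and 5984 bp for tandem gaps.

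The longest divergent gaps of all had at least 1 gene without a name or a tRNA gene at their side. A gap of 7822 bp lay between TDA8 and YAL064W on chromosome I, and 1 of 7420 bp between YGR038C-B and YGR039W on chromosome VII. On chromosome XIV the tRNA genes tT(AGU)N2 and tP(UGG)N2 were 7349 bp apart. The tRNA gene tN(GUU)L and TUS1, which encodes an exchange factor for Rho1, were 6837 bp apart on chromosome XII. Features that are not genes in the annotation do not bound a gap and were not analysed here.

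Each chromosome spanned a wide range of named pairs. The shortest pair of a chromosome lay between 27 bp (SOM1 with HHY1 on V) and 193 bp (RSC8, a chromatin remodeller subunit gene, with IRC5 on VI). Examples at intermediate lengths were FIS1, a mitochondrial fission gene, with EFM4 on IX (167 bp), MRPL20 with the splicing helicase gene PRP16 on XI (175 bp) and MLC2 with SKI3 on XVI (184 bp). The longest pair of a chromosome was shortest on XII, where UBR2, a ubiquitin ligase gene, and SNF7, an ESCRT gene, were 1170 bp apart. IME1, the master regulator of meiosis, and RPL43B were 2653 bp apart on X. SOK2 and SPO20 had 1895 bp between them on XIII, and RPI1 and RHO3 1874 bp on IX.

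Of 17 divergent pairs known from textbooks, 14 were direct neighbours in the annotation, and their gaps ranged from 221 to 867 bp. The 4 pairs of core histone genes had gaps of 646 to 817 bp. HTB1 and HTA1, for H2B and H2A, were 817 bp apart (chrIV:917818-918634), and their counterparts HTA2 and HTB2 699 bp apart (chrII:235793-236491). HHF1 and HHT1, for H4 and H3, were 646 bp apart (chrII:255685-256330), and HHT2 and HHF2 676 bp apart (chrXIV:576051-576726). All 4 were above the divergent median of 477 bp.

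GAL10 and GAL1, the epimerase and galactokinase genes, were 668 bp apart (chrII:278353-279020). Close to that were GLT1, for glutamate synthase, and UGA3, an activator of GABA use, with 677 bp on chromosome IV. DAL1, for allantoinase, and DAL4, for allantoin permease, were 825 bp apart on chromosome IX, and RIO1, a kinase gene, and GCY1 867 bp on chromosome XV. The shorter ones were BIO4 and BIO3 of biotin synthesis with 221 bp on chromosome XIV, MRM1, a mitochondrial rRNA methyltransferase gene, and HIS3 of histidine synthesis with 237 bp on chromosome XV, and MATALPHA2 and MATALPHA1, the mating type regulators, with 263 bp on chromosome III. The 3 SNO and SNZ pairs of vitamin B6 synthesis had 390 bp (SNO2 and SNZ2), 393 bp (SNO3 and SNZ3) and 448 bp (SNO1 and SNZ1). The mating type genes are those of the annotation, and the mating type of the strains was not examined.

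The other 3 textbook pairs were split by a small annotated gene. MAL11 and MAL12, for a maltose transporter and a maltase, lay 785 bp apart on chromosome VII with YGR290W and YGR291C between or overlapping them, so that the divergent gap of MAL12 was the 94 bp to YGR291C. MAL31 and MAL32 were 875 bp apart on chromosome II with YBR298C-A between them, and the divergent gap of MAL32 was also 94 bp. SPS18 and SPS19, sporulation genes, were 300 bp apart on chromosome XIV with YNL203C between or overlapping them, and SPS19 had no gap on its 5′ side. With only the coding genes of the R64 table, MAL11 with MAL12 and SPS18 with SPS19 became neighbours again and MAL31 with MAL32 did not, as YBR298C-A is listed there.

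**Figure D4:**
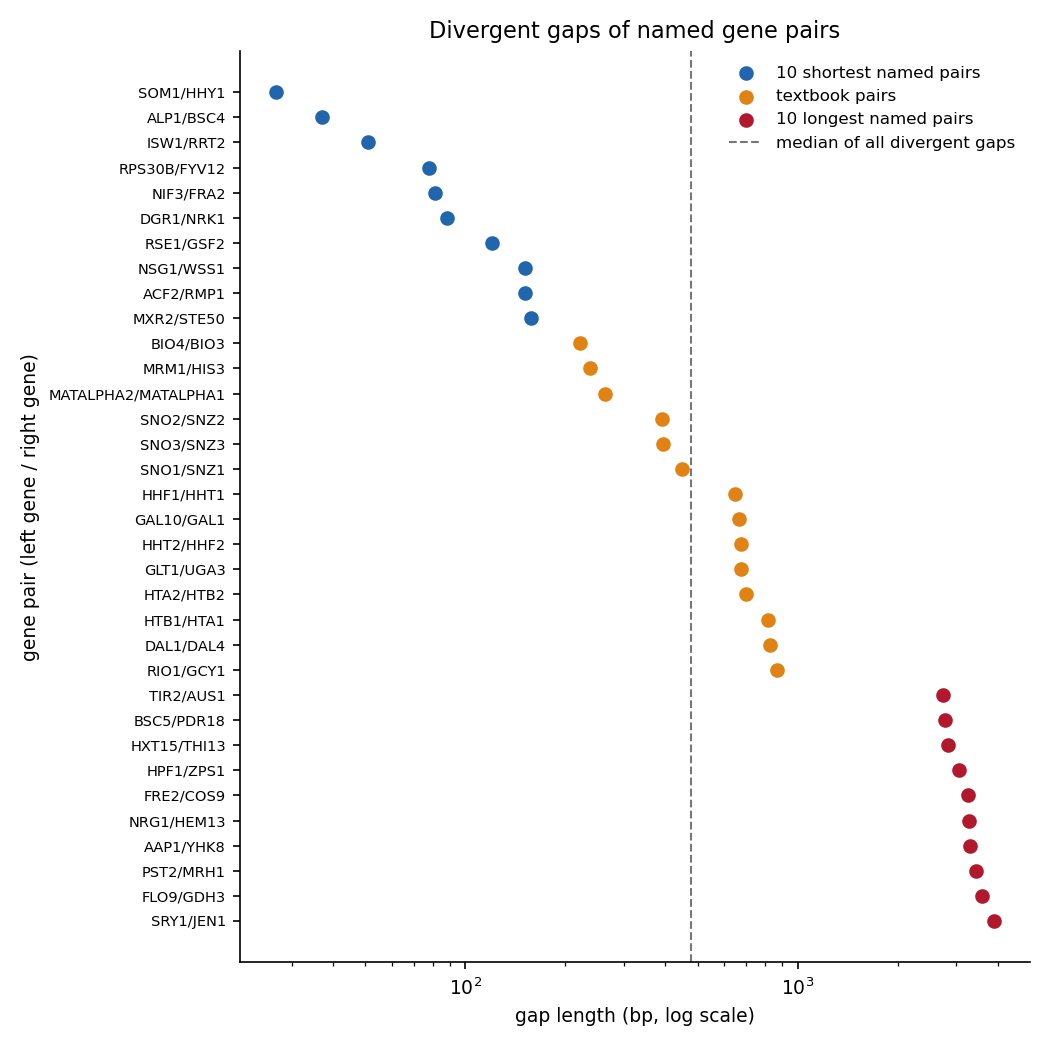
Gap length in bp (horizontal log axis) of the 10 shortest named divergent pairs (blue), the 14 textbook pairs that are direct neighbours (orange) and the 10 longest named pairs (red), 1 point for each gap; the dashed line is the median of all divergent gaps, 477 bp. The 4 histone pairs and GAL10 with GAL1 cluster at 646 to 817 bp, right of the median.

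Some divergent arrangements recurred between gene families, a pattern looked for after the values were seen. The HTA with HTB and HHF with HHT pairs each occurred 2 times, and SNO with SNZ 3 times. RPS16B with RPL13A on chromosome IV (634 bp) and RPL13B with RPS16A on chromosome XIII (720 bp) were the same pairing of duplicated ribosomal protein genes. MLP2 with RPL40A on chromosome IX (640 bp) and RPL40B with MLP1 on chromosome XI (1054 bp) were another, MLP1 and MLP2 being genes of nuclear pore proteins. CHS3 with SCO2 (1519 bp) and SCO1 with CHS2 (445 bp) joined chitin synthase genes to genes of mitochondrial copper proteins, both on chromosome II. VBA5 with GEX2 on chromosome XI (977 bp) and GEX1 with VBA3 on chromosome III (1379 bp) joined transporter genes. The lengths of recurring pairs were nearly equal for SNO2 with SNZ2 and SNO3 with SNZ3 and far apart for the CHS and SCO pairs.

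Gene names in yeast often share their letters within a pathway or complex. Both names had the same letters before the number in 12 of 924 named divergent pairs (1.3%), 29 of 1763 tandem pairs (1.64%) and 11 of 1040 convergent pairs (1.06%). The share among divergent pairs lay between the other 2 classes. Among the 12 were mating type genes at their annotated silent and active loci on chromosome III. HMLALPHA2 with HMLALPHA1 and MATALPHA2 with MATALPHA1 both had 263 bp, and HMRA2 with HMRA1 had 296 bp. RPA43 and RPA190, which encode subunits of RNA polymerase I, were 804 bp apart on chromosome XV. The sporulation genes DIT2 and DIT1 were 898 bp apart on chromosome IV, and the cell wall genes PIR1 and PIR3 1581 bp apart on chromosome XI.

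Because each divergent gap serves 2 genes, 3188 of 7071 nuclear genes (45.1%) had their 5′ side at one. Among protein-coding genes these were 2994 of 6664 (44.9%), while 2865 faced a tandem gap and 805 had no gap on the 5′ side. Of the genes with a gap there, 51.1% had a divergent one. The following lists were set against these shares. They are counts without a test.

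The genes of the histones stood at divergent gaps in 10 of 11 cases, the centromeric histone gene CSE4 being the exception, with a tandem neighbour. Their gaps, taken per gene, ran from 605 bp (HHO1, for linker histone, with NAN1) to 1365 bp (HTZ1, for H2A.Z, with PLB3), with a median of 687.5 bp counted per gene. None was between 200 and 349 bp, a range that held 28.5% of the divergent gaps of protein-coding genes, counted per gene. The list holds both genes of the 4 core histone pairs, so each of those 4 gaps is counted for both its genes. These pairs were also chosen above as textbook divergent pairs, so the high share partly restates that choice. Of the 8 galactose genes, 4 were at divergent gaps, GAL1, GAL10, GAL3 (831 bp, with YDR008C) and PGM2 (457 bp, with YMR105W-A).

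Cytoplasmic and mitochondrial ribosomal protein genes differed in gap length. Of 138 cytoplasmic genes, 75 (54.3%) were at divergent gaps with a median of 719 bp. Only 2 of the 75 (2.67%), RPL2A and RPS28A, fell at 200 to 349 bp, both with 295 bp, and 67 (89.3%) were 450 bp or longer. Of 68 mitochondrial genes, 35 (51.5%) were at divergent gaps with a median of 312 bp, 16 of them (45.7%) at 200 to 349 bp and 14 (40%) at 450 bp or longer. For all protein-coding genes the median was 466.5 bp and 52.1% were 450 bp or longer. The tandem gaps of the lists went the same way, with medians of 470 bp for cytoplasmic and 294 bp for mitochondrial ribosomal protein genes and 372 bp for all protein-coding genes. Divergent pairs of 2 cytoplasmic ribosomal protein genes numbered 5, the longest being RPL24A with RPL30 (1156 bp) and the shortest RPS22A with RPL39 (630 bp).

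Proteasome genes were at divergent gaps in 20 of 34 cases (58.8%), with a median of 374.5 bp and a range of 198 bp (RPN9 with YDR426C) to 1786 bp (PUP2 with the enolase gene ENO1). No pair consisted of 2 proteasome genes. Of 17 glycolysis genes, 7 were at divergent gaps (41.2%), among them CDC19, the pyruvate kinase gene, with CYC3 (2260 bp), TDH2 with MET3 (1557 bp), PGK1 with ADP1 (872 bp) and TDH1 with YJL052C-A (267 bp). Of the 6 genes of the MCM2-7 helicase, 3 were, namely MCM5 with PIG1 (525 bp), MCM7 with YBR201C-A (1075 bp) and MCM6 with a tRNA gene (1361 bp).

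Among the genes of the mitotic chromosome machinery, 4 of 6 of the chromosomal passenger and shugoshin list were at divergent gaps. IPL1, the Aurora B kinase gene that is mutated or fused in strains of the study, was 248 bp from RKM1, a ribosomal protein methyltransferase gene, on chromosome XVI. NBL1, the borealin-like subunit gene, was 219 bp from RPN10, a proteasome gene, on chromosome VIII. BIR1, the survivin counterpart, was 344 bp from EMC2 on chromosome X, and BUB1, a checkpoint kinase gene, 1284 bp from a tRNA gene on chromosome VII. SLI15 and SGO1 had tandem neighbours at their 5′ sides. Of 14 condensin and cohesin genes, 4 (28.6%) were at divergent gaps: SMC4 with ARP6 (253 bp), SMC3 with JEM1 (331 bp), YCG1 with UTP4 (362 bp) and ECO1 with ULI1 (1194 bp). The other 10, MCD1 and SMC1 among them, faced tandem gaps.

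**Figure D5:**
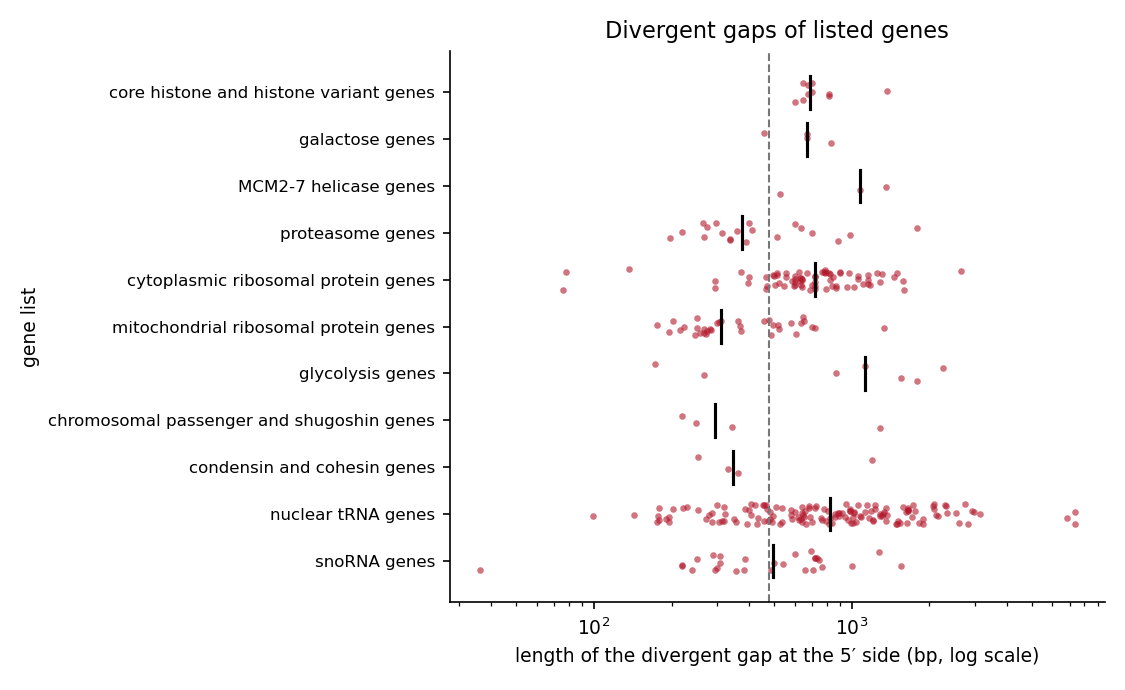
Length in bp (horizontal log axis) of the divergent gap at the 5′ side of each listed gene, 1 point per gene and jittered vertically, so that a gap between 2 listed genes appears 2 times; black ticks are list medians and the dashed line is the median of all divergent gaps, 477 bp. Histone and cytoplasmic ribosomal protein genes lie mostly right of the dashed line (medians 687.5 and 719 bp), and mitochondrial ribosomal protein genes mostly left of it (median 312 bp).

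Most divergent gaps lay between protein-coding genes. Both genes coded for protein in 1410 (88.5%), the same share as among 3040 tandem gaps (88.5%). A tRNA gene and a protein-coding gene flanked 136 (8.53%), with a median of 800.5 bp against 500.5 bp for 244 tandem gaps of this kind. The tandem gaps include those at the 3′ side of the tRNA gene, which divergent gaps never are. At the 5′ side of tRNA genes, counted per gene, the medians were close. They were 823 bp for 147 divergent and 796 bp for 116 tandem gaps. A snoRNA gene and a protein-coding gene flanked 24, with a median of 519.5 bp. Among the others, snR31 and snR5 shared 220 bp on chromosome XV, and snR161 and TLC1, the telomerase RNA gene, 241 bp on chromosome II. The annotated rRNA gene records RDN37-1 with RDN5-1 and RDN37-2 with RDN5-2 had 1943 bp between them in both annotated copies on chromosome XII. Any transcribed part outside these records counts as gap. These copies are part of a repeat, so they are not separate observations.

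The intervals between the innermost numbered genes of the chromosome arms were divergent on 2 chromosomes. TFC3, for a subunit of the RNA polymerase III factor TFIIIC, and NUP60, a nuclear pore gene, were 1090 bp apart on chromosome I, which ranked 7 in length among the divergent gaps there. IRC22 and MNN1, a mannosyltransferase gene, were 2541 bp apart on chromosome V, which ranked 3.

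No divergent gap changed between the before and after versions of the genome. All 1594 had the same flanking genes and the same length in both. On chromosome IV, 57 of 196 kept their position and 139 moved by -3423 bp. The gap of HTB1 and HTA1, 817 bp long, was among those on the right arm that moved.

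The 500 bins per chromosome that the authors deposited resolved these intervals to different degrees. The starts of both genes of a pair lay in the same bin for 1025 of 1594 divergent gaps (64.3%) in the before grid and 1031 (64.7%) in the after grid. On chromosome I, with bins of 461 bp, this held for 5 of 30, and the gap of TDA8 and YAL064W touched 18 bins. On chromosome IV it held for 156 of 196 before, with bins of 3071 bp, and 162 after, with bins of 3064 bp. On that chromosome 23 pairs were in 1 bin before but not after, and 29 after but not before.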

How the data were processed

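The submitters' processing notes name Bowtie2 (2.2.9), and no source used here names the genome build. Library depth is unknown. The 6 deposited files hold positions in bp (chromosome lengths, bin edges and Ensembl gene records) and no counts, signal or score per library. Position is therefore the only unit, as the authors deposited it. The planned reading of motifs and base composition was not made, as no sequence was used.

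Genes of the 16 nuclear chromosomes were sorted by start. A gap ran from the highest end so far to the next start, its left gene being the one with that end. Its class came from the strands. Coordinates are 1-based in the before version. Genes were looked up by identifier as locus tags in the RefSeq gene table of assembly R64, and 5989 of 6664 nuclear protein-coding genes matched. From that table came names, order and whether a gene is listed. The listing was used to group gaps and, in 1 alternative, to rebuild them from listed coding genes. In simulated data of 4000 genes, 3585 of 3585 gaps were recovered. No simulated gene lay wholly inside another, so the rule of the highest end was not checked for nested genes. In the annotation, nested genes made up 57 divergent, 50 tandem and 57 convergent steps without a gap.

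The members, lists and textbook pairs were chosen with earlier results of these data known. Named pairs were the 10 shortest and 10 longest divergent gaps between named protein-coding genes, the extremes of each chromosome, the 3 shortest and longest tandem ones, the textbook pairs and the extremes over all genes; other pairs were chosen after their values were seen. Python 3.11.15, pandas 2.3.3, numpy 2.4.6 and matplotlib 3.10.9 were used.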

Additional observations from a re-analysis of the deposited data

How the results depend on the processing

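The number and share of divergent gaps, the medians of divergent and tandem gaps, their ratio, the number of chromosomes with the longer divergent median and the share of pairings with the longer divergent gap were recomputed under 9 alternatives, 63 values in all. These were another left gene, protein-coding genes, named genes, coding records, the after annotation, a smallest gap of 50 bp, gaps over 20 kb from an end, gaps without tRNA genes and, chosen after seeing the data, coding genes of the R64 table. The outcomes of 2 alternatives were known beforehand. The after annotation has the same divergent gaps, and coding records give every coding gene the same extent, so they repeat the protein-coding alternative. Their values are counted among the 63 but add no separate check. None of the 63 reversed, and 61 moved by less than the SD over chromosomes (counts by less than 1.5 times). The remaining 2 came from named genes alone, with medians of 591 bp for divergent and 446 bp for tandem gaps. This alternative joins gaps across the genes it leaves out, as do those of protein-coding genes, coding records and R64 coding genes. The ratio ranged from 1.23 without tRNA genes to 1.33 with named genes, which also gave 15 of 16 chromosomes with the longer divergent median. With R64 coding genes there were 1525 divergent gaps, 1266 of them unchanged pairs and 259 formed only by the rebuilding. The medians were then 517 bp for divergent and 401 bp for tandem gaps. The ranges of 200 to 349, 350 to 449 and 450 to 699 bp held 136, 64.5 and 74.8 of these divergent gaps per 50 bp. Divergent gaps under 100 bp were then 25 (1.64%) and tandem ones 53 (1.88%). The alternative window for motifs was not run. No paired analysis was possible because only genome positions were deposited among the tables used here, without measurements. No alternative gave a length to neighbours with no base between them. Lengths depend on which genes are annotated, and start codons stand in for transcription starts.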

Other observations

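The R64 table lists genes that the deposited annotation lacks. Among 1271 divergent gaps with both genes in that table, 5 had another R64 gene between them by order. The gap of IME1 and RPL43B held IRT1, a non-coding RNA gene, and that of PST2 and MRH1 held the non-coding RNA genes SUT053 and SUT468. Short reading frames lay between HEM3 and RTN2 (859 bp), PLB1 and ADI1 (1517 bp), and COG6 and YNL040W (1392 bp).

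Protein-coding genes with a divergent gap at the 5′ side had a median length of 1089 bp, and those with a tandem gap 1203 bp. The 805 without a gap there had a median length of 471 bp, and 48.4% of them were in the R64 table, against 94.8% of genes at divergent gaps and 96.3% of genes at tandem gaps.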
